A study of Homo sapiens with 2 samples.

Results

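Integrin and laminin genes were examined in SW620, an established human cell line grown from a nodal metastasis of colorectal carcinoma, with and without knockdown of the transcription factor SOX2. The 35 listed genes were integrin subunits and laminin chains chosen by name, and each was read from array probe sets annotated to that symbol alone. Such probe sets were found for 33 of them, 24 integrin and 9 laminin genes, among 19775 genes on the arrays. ITGB6 had 4 probe sets, all annotated to a further symbol as well, and LAMA3 had none under its symbol, so neither was analysed here. The data were 2 Affymetrix 3′ expression arrays. One came from SW620 cells with Mock knockdown, carrying a lentiviral non-targeting short hairpin RNA, and the other from SW620 cells with Sox2 knockdown, carrying a lentiviral hairpin against SOX2; both cultures were grown in RPMI medium. The titles end in KO although the hairpin design is a knockdown, and the description field of both samples names the liver of Ecm1 mutant mice, which matches neither the source names nor the stated human organism. There was 1 array per group, so no difference could be tested, no spread between cultures is known, and the labels do not say how many hairpins or clones were used.

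Integrins are receptors of 2 chains, an alpha and a beta subunit, that cross the plasma membrane and couple the extracellular matrix to the actin or keratin cytoskeleton. Laminins are secreted trimers of an alpha, a beta and a gamma chain and form the sheet of the basement membrane on which intestinal epithelium rests. The alpha subunit largely sets the ligand: some alphas bind collagen, some laminin, some the RGD tripeptide found in fibronectin and vitronectin, and some are used mainly by leukocytes. Most alphas pair with ITGB1, whereas ITGAV pairs with several betas and ITGB4 only with ITGA6.

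With SOX2 knocked down, signal was at least doubled for 6 integrin genes and 47.8% of mock for 1, while no laminin gene differed by 2-fold. The higher genes were the collagen-binding alphas ITGA1 and ITGA2, the laminin-binding alpha ITGA3, the alpha ITGAV and 2 of its beta partners, ITGB5 and ITGB8. The lower gene was ITGA5, the alpha of the classical fibronectin receptor. These counts are over the 21 integrin genes whose probe set reached the floor, an intensity of 68.5 that is the median of all values, on at least 1 array. That makes 28.6% of integrins higher, against 8.44% of all 13609 genes reaching the floor, and 4.76% of integrins lower, against 7.29% of all genes. The members were chosen with earlier results of these data known, so these shares are a description and not a test. Of 8 laminin genes reaching the floor 0 differed by 2-fold, beside 15.7% of all genes in 1 direction or the other. With only 8 genes these shares cannot be told apart. The median integrin difference was 0.02 on the log2 scale, beside -0.0063 over all genes, and the mean integrin difference was 0.40. The median depended on members near the floor: with the floor at the 75th percentile, which 13 integrins reached, it was 0.48. ITGA1 reached the floor only on the SOX2 knockdown array, and a gene admitted that way had to differ. All differences are log2 of SOX2 knockdown over mock, and no gene's level is set against another's, since probe sets differ in brightness for the same amount of RNA.

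**Figure D1:**
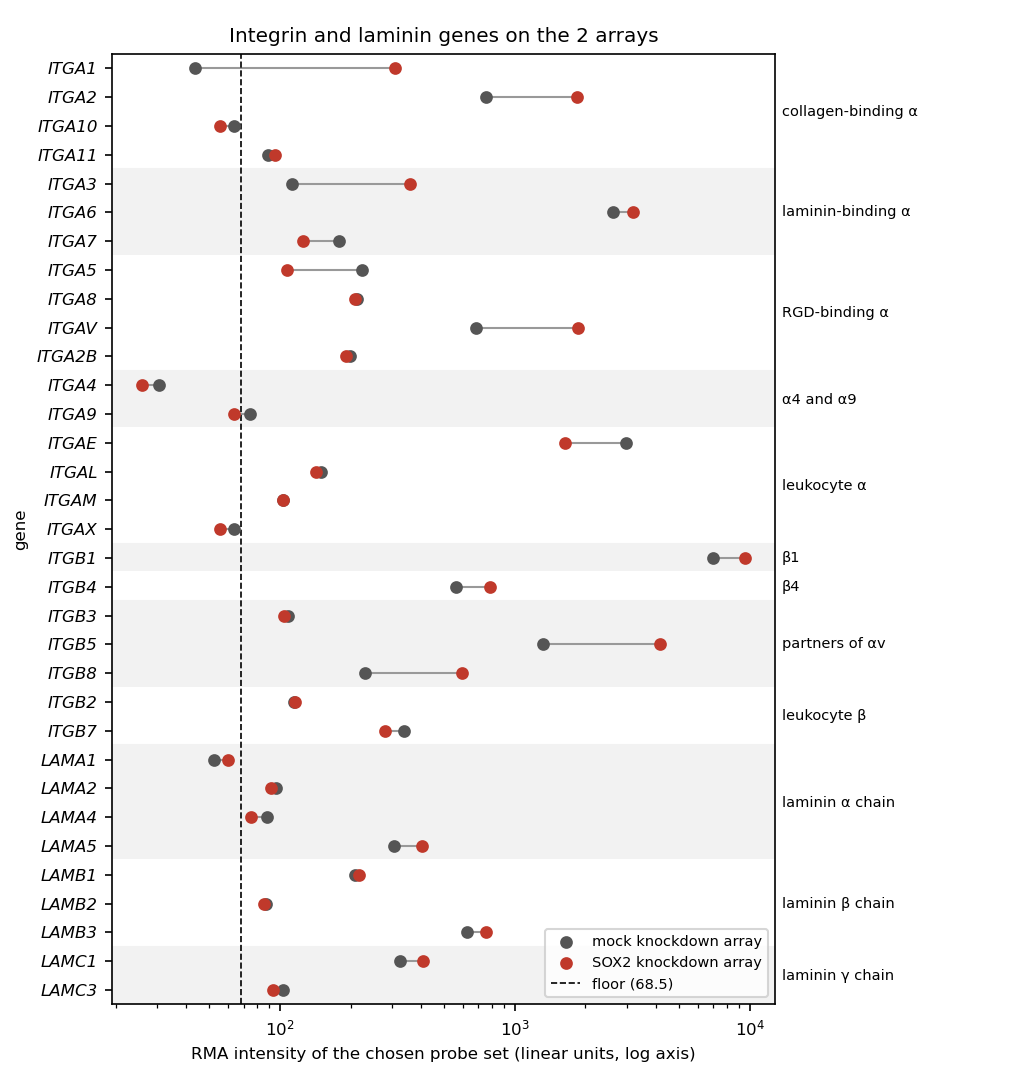
RMA intensity of the chosen probe set of each of 33 integrin and laminin genes (horizontal log axis) on the mock array (grey) and the SOX2 knockdown array (red), 1 array each, grouped by role, with the floor of 68.5 as a dashed line. ITGA1, ITGA2, ITGA3, ITGAV, ITGB5 and ITGB8 lie to the right of their mock value by at least 2-fold, ITGA5 lies to the left, and the laminin pairs nearly coincide.

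ITGAV and its partners form receptors for RGD ligands and for the latent form of TGF-beta, and their promoter windows are shown because ITGAV, ITGB5 and ITGB8 were higher together on the array lacking most SOX2 signal. The windows hold the 250 bases before a RefSeq transcription start on assembly GRCh38.p14, read 5′ to 3′ on the strand of the gene. RefSeq gave 2 starts for ITGAV, 3 for ITGB5 and 1 for ITGB8. The start farthest upstream is shown for each gene, with the further start of ITGAV as well. Capitals mark the words ACAATG and ACAAAG, cores of the sequence that SOX proteins bind, and the GC box GGGCGG, on either strand. The windows lie at chr2:186589806-186590055 and chr2:186599955-186600204, plus strand, for ITGAV, chr3:124901419-124901668, minus strand, for ITGB5, and chr7:20330650-20330899, plus strand, for ITGB8.
ITGAV, upstream start: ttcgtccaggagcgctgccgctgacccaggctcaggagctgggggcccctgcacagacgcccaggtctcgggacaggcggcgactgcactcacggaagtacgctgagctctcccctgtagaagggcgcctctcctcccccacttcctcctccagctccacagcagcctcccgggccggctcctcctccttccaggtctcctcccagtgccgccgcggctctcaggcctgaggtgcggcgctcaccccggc
ITGAV, further start: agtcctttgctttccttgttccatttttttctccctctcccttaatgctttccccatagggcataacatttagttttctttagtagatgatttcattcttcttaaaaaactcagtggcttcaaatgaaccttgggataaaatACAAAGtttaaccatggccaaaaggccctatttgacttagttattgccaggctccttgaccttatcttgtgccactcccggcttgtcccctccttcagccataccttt
ITGB5: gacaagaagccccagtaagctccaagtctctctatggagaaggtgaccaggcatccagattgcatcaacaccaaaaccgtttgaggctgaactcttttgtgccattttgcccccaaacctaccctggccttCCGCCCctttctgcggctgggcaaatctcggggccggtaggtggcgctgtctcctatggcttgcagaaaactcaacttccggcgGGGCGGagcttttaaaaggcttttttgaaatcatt
ITGB8: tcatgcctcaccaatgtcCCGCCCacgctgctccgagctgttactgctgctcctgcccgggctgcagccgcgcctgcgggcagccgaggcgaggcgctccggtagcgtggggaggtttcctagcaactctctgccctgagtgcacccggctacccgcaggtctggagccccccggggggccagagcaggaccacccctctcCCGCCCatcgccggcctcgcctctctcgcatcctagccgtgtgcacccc

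The only SOX word in these 4 windows was ACAAAG, at position -108 of the further ITGAV start. The ITGB5 and ITGB8 windows held 2 GC boxes each and the ITGAV windows none. Among all 35116 windows of the same length, counting every start given for a gene, 21.2% held a SOX word and 42.6% a GC box. Counted the same way, 2 of 32 windows of listed genes held a SOX word. At the farthest upstream start, a SOX word stood in 0 of 17 windows of listed integrins and in 1 of 8 of listed laminins, LAMB3, where CATTGT, the reverse complement of ACAATG, began at position -210. These matches describe letters in a short window and say nothing of where SOX2 is bound.

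The targeted gene SOX2 was lower after its knockdown, going from 2077 to 20.9 at its brightest probe set, a bound of at least 30.3-fold since 20.9 is under the floor. A further SOX2 probe set went from 333 to 120, a difference of -1.47. Across all probe sets the median intensity was 69.0 (mock) and 68.1 (SOX2 knockdown). Of 10 markers of colorectal epithelium, 7 reached the floor with mock and all 10 with SOX2 knockdown, at summed intensities of 50450 and 79935. Within that list KRT20 went from 23.2 to 10763, at least 157-fold higher, LGALS4 from 39.1 to 6010, at least 87.7-fold higher, and CDH17 from 35.5 to 78.0, while VIL1 went from 2063 to 867, a difference of -1.25. Of 11 leukocyte markers with a probe set, 1 and 2 reached it, with sums of 766 and 660, and PTPRC, the pan-leukocyte phosphatase CD45, stood at 16.7 and 19.9. Those that reached it went opposite ways, CD14 from 43.6 to 156, at least 2.28-fold higher, and LAPTM5 from 318 to 107, 2.98-fold lower. Platelet, fibroblast and endothelial lists summed to between 298 and 663 on each array. Of 6 hepatocyte markers 4 reached the floor on each array, and their sum went from 649 to 4673, of which SERPINA1 made 313 and 4301, while albumin stood at 21.5 and 20.0. Such sums are dominated by the brightest probe sets and serve only to compare the arrays. The part of these marker lists in the integrin differences was not tested. In bulk RNA, fewer cells carrying a transcript and less transcript per cell cannot be told apart.

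The collagen receptors differed most in ITGA1. ITGA1, the alpha of the α1β1 receptor for basement membrane collagen, went from 43.6 with mock to 310 with SOX2 knockdown. The mock value lay under the floor, so ITGA1 was at least 4.52-fold higher. A further ITGA1 probe set, 214660_at, went from 12.0 to 47.4 and stayed under the floor, and 1560359_at stood at 10.6 and 11.6. ITGA2, the alpha of the α2β1 receptor for fibrillar collagen, went from 755 to 1846 and was 2.44-fold higher. Its other probe set, 205032_at, went from 351 to 691, a difference of 0.98 that falls just short of 2-fold, so both probe sets of ITGA2 were higher. ITGA11, also a collagen receptor alpha, stood at 89.2 and 95.5, close to the floor, and ITGA10 was under the floor on both arrays.

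ITGA1 and ITGA2 lie beside each other on chromosome 5, so position was examined for each differing member through the 5 nearest other genes on each side that reached the floor on both arrays. The 10 neighbours of ITGA1 had a median difference of -0.12, with 1 at least 2-fold higher and 2 lower. Those of ITGA2, which overlap them, had a median of 0.13. The higher neighbour of ITGA1 differed by 1.05. PELO, which shares the start of the ITGA1 locus, was among its 10 neighbours. The medians were 0.01 around ITGA3, -0.12 around ITGAV, -0.36 around ITGB8 and -0.45 around ITGA5. Around ITGA5, 7 of 10 neighbours were below 0, 1 of them by at least 2-fold, and around ITGAE, a leukocyte integrin 1.83-fold lower, 8 of 10 were below 0, with a median of -0.24. Around ITGB5 on chromosome 3, 9 of 10 neighbours were above 0, 3 were at least 2-fold higher and 1 was lower. Their median was 0.59, with values from -1.15 to 2.61. Over all genes reaching the floor on both arrays, 6.68% were at least 2-fold higher and 5.58% lower. The part of chromosomal position in these differences was not tested.

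Among the laminin-binding alphas only ITGA3 was higher by 2-fold. ITGA3 pairs with ITGB1 and binds the laminins of epithelial basement membrane. It went from 112 to 357 at its single probe set and was 3.18-fold higher. ITGA6, which pairs with ITGB1 or with ITGB4 in hemidesmosomes, the keratin-linked anchors of epithelium, went from 2617 to 3176, a difference of 0.28, and its other probe set differed by 0.54. ITGA7, best known from muscle, went the other way, from 178 to 125, a difference of -0.51, and its second probe set went from 110 to 62.3, under the floor, which bounds its difference at -0.69 or lower. Neither ITGA6 nor ITGA7 passed the limit of 2-fold at any probe set reaching the floor.

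ITGB1, the shared partner of these alphas, differed by less than its higher partners. Its brightest probe set went from 6966 to 9564, a difference of 0.46. The 2 other ITGB1 probe sets that reached the floor differed by 0.67 and 0.62, so all 3 were higher but none by 2-fold. ITGB4, the hemidesmosomal beta with an unusually long cytoplasmic tail, went from 562 to 786, a difference of 0.48. The other ITGB4 probe sets reaching the floor differed by 0.28 and -0.13, so its direction depended on the probe set.

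The RGD-binding alphas split. ITGAV went from 687 to 1857 at its single probe set and was 2.70-fold higher. ITGA5, whose α5β1 receptor binds fibronectin and whose single probe set went from 224 to 107, was 2.09-fold lower, with 47.8% of the mock value left. The difference of -1.06 lay just past the limit of 2-fold, and with a pseudocount of 32 it was -0.88. ITGA8, mainly known from kidney and smooth muscle, stood at 212 and 208 at a probe set whose suffix marks possible cross-hybridization, while its 3 others were under the floor. ITGA2B, the platelet alpha, stood at 198 and 192.

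The beta partners of ITGAV differed unequally. ITGB5, whose αvβ5 receptor binds vitronectin, went from 1318 to 4140 and was 3.14-fold higher. All 4 of its probe sets reached the floor and all were higher: 201124_at went from 116 to 564, a difference of 2.28, 214021_x_at differed by 1.25 and 214020_x_at by 0.49. ITGB8, whose αvβ8 receptor binds latent TGF-beta, stood 2.58-fold higher, at 230 and 594. The 4 other ITGB8 probe sets were under the floor on both arrays, so its difference rests on 1 probe set. ITGB3 pairs with ITGAV in osteoclasts and endothelium and with ITGA2B in platelets. It stood at 109 and 104, with another probe set differing by 0.11.

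**Figure D2:**
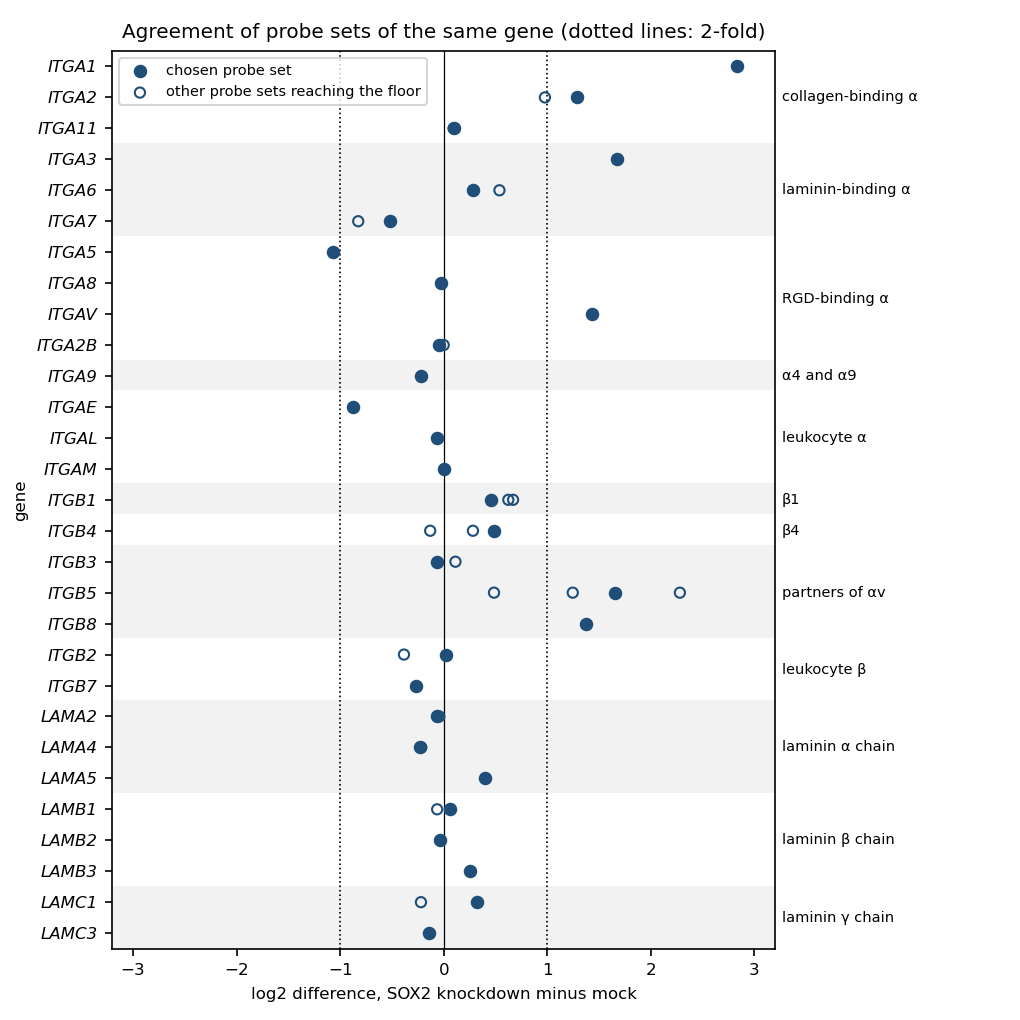
Log2 difference, SOX2 knockdown minus mock, for every probe set that reached the floor, by gene; filled points are the chosen probe sets, open points the others, and dotted lines mark 2-fold. The 4 probe sets of ITGB5 spread from 0.49 to 2.28 and both of ITGA2 lie near 1, whereas ITGA1, ITGA3, ITGA5, ITGAV and ITGB8 rest on 1 point each.

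Among the integrins of leukocytes the largest difference was that of ITGAE, and none passed 2-fold. ITGAE, also called CD103, pairs with ITGB7 on intraepithelial lymphocytes and binds E-cadherin. It went from 2980 to 1629 at its single probe set, a difference of -0.87 and thus 1.83-fold lower, short of the limit. ITGB7 went from 336 to 279, a difference of -0.27. ITGAL stood at 149 and 143, ITGAM at 103 on both arrays, and ITGB2, the beta that joins ITGAL, ITGAM and ITGAX, at 115 and 116. CDH1, the gene of E-cadherin, went from 1951 to 3676, a difference of 0.91, and its probe sets ranged from 0.34 to 0.91. ITGAX was under the floor on both arrays, as was ITGA4, and ITGA9 stood at 74.6 and 64.0.

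No laminin chain passed 1.5-fold. All 8 laminin genes reaching the floor lay between -0.23 and 0.40, with a median of 0.01, whereas 29.8% of all genes differed by at least 1.5-fold in 1 direction or the other. LAMA5, the main laminin alpha of adult epithelium, went from 307 to 405, a difference of 0.40. LAMB1 stood at 209 and 217, and LAMC1, the gamma chain of most laminins, went from 326 to 408, a difference of 0.33. The second LAMC1 probe set differed by -0.22, so the direction of LAMC1 was not settled. LAMB3, a chain of the laminin to which hemidesmosomes attach, went from 628 to 751, a difference of 0.26.

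The remaining laminin values were close to the floor and allow little to be read. LAMA2, the alpha of muscle and nerve, stood at 96.2 and 91.9, LAMA4, of vessel walls, at 88.0 and 75.2, LAMB2 at 87.7 and 85.5 and LAMC3 at 103 and 93.4. LAMA1 was under the floor on both arrays, at 52.5 and 59.9. Over both families, 9 of the 29 genes reaching the floor had a brighter value under 2 times the floor, a group that by its definition leaves out genes that were much higher on 1 array.

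Probe sets of the same gene give the only measure of spread here, and it holds no variation between cultures. Over 14 listed genes with several probe sets reaching the floor, the SD between them was 0.36 on the log2 scale, beside 0.49 over 6440 such genes in all. The differences of ITGA1, ITGA2, ITGA3, ITGAV, ITGB5, ITGB8 and ITGA5 were larger than either SD, as were those of ITGAE and ITGA7, while those of ITGB1, ITGB4 and LAMA5 lay between the 2 SDs and those of ITGA6 and the other laminins under both.

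Genes that link integrins to the cytoskeleton went both ways. Of 34 integrin activators and adhesion plaque genes reaching the floor, 5 were higher by 2-fold or more and 5 were lower, around a median of 0.02. These 10 make 29.4% of the list, beside 15.7% of all genes differing by 2-fold in 1 direction or the other. FERMT2, LPXN and TGFB1I1 reached the floor only on the mock array and TRIP6 only on the SOX2 knockdown array. Of the list, 33 genes reached the floor with mock and 31 with SOX2 knockdown. With the floor required on both arrays, 6 plaque genes differed, where 6.68% of all genes were higher and 5.58% lower. FERMT2, a kindlin that activates beta tails, went from 420 to 21.0 and was at least 6.13-fold lower, with all 3 of its probe sets reaching the floor lower. FERMT1, the kindlin of epithelium, stood at 2537 and 2571. LPXN, a paxillin relative, was at least 11.9-fold lower, going from 816 to 67.7, and TGFB1I1, another paxillin relative, at least 4.40-fold lower, from 301 to 67.6.

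Among the higher plaque genes were signalling components. PTK2, the focal adhesion kinase FAK, went from 846 to 3548 and was 4.19-fold higher, and its 3 probe sets ranged from 1.70 to 2.07. TRIP6, a zyxin relative, was at least 4.50-fold higher, from 60.8 to 308. TNS4, a tensin that binds beta tails, went from 285 to 1036, a difference of 1.86, but its other probe set differed by 0.29. The other plaque genes past 2-fold, named after their values were seen, were NEDD9 and LIMS2, 2.68-fold and 2.28-fold higher, and the tensin TNS3 and the parvin PARVB, 3.90-fold and 2.49-fold lower, with all 5 probe sets of PARVB lower. The other NEDD9 probe sets reaching the floor differed by 0.75 and -0.05. The remaining 24 lay within 2-fold, with ACTN4 at 0.99 and VCL, vinculin, at -0.92 closest to the limit.

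Partners of the laminin sheet were mixed. Of 11 basement membrane genes reaching the floor, 2 were higher by 2-fold or more and 1 was lower, 27.3% in all beside 15.7% of all genes, around a median of -0.10. COL4A2, a chain of the collagen network, went from 959 to 235 and was 4.09-fold lower, with its second probe set at -1.63. NTN4, a netrin that binds laminin, was at least 3.73-fold higher, from 17.2 to 255. It reached the floor only on the SOX2 knockdown array. On each array 10 genes of the list reached the floor. With the floor required on both arrays 2 of the list differed, where 6.68% of all genes were higher and 5.58% lower. AGRN, a proteoglycan that binds laminin, went from 230 to 641, a difference of 1.48, though another of its 4 probe sets differed by 0.04. COL18A1 and PXDN, 2 further matrix proteins, differed by -0.92 and -0.81. NID1, which bridges laminin and collagen, was chosen here after its values were seen, because its probe sets disagreed: 1561082_at stood at 74.1 and 69.7, while 202007_at went from 254 to 9.83 and was at least 3.71-fold lower.

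Other integrin ligands went both ways. Of 14 other integrin ligands reaching the floor, 2 were higher by 2-fold or more and 2 were lower, 28.6% in all beside 15.7% of all genes, around a median of 0.10. NPNT, nephronectin, a ligand of the ITGA8 receptor, was at least 4.96-fold higher, from 19.3 to 340, and THBS1, thrombospondin, at least 4.76-fold higher, from 56.2 to 326, with all 3 of its probe sets higher. Both genes reached the floor only on the SOX2 knockdown array, and a gene admitted that way had to differ. CCN1, a matrix-associated integrin ligand, differed by 0.97. COL6A1 went from 309 to 71.6, a difference of -2.11, but its 4 other probe sets, as deposited, lay between -0.41 and -0.07. ICAM2, a ligand of ITGAL with ITGB2, went from 396 to 133, a difference of -1.57, and TNC, tenascin, differed by -0.64.

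All 3 measured laminin receptors outside the integrin family were higher by less than 2-fold, BCAM at 0.87, the syndecan SDC4 at 0.78 and SDC1 at 0.52, although a second SDC1 probe set differed by 1.07. Of 3 measured hemidesmosome partners none passed 2-fold at its chosen probe set, beside 15.7% of all genes. With only 3 genes these shares cannot be told apart, and COL17A1 had no probe set of its symbol alone. CD151, a tetraspanin bound to laminin-binding integrins, differed by 0.66 and the keratin linker PLEC by 0.42. DST, which encodes the bullous pemphigoid antigen among other isoforms, differed by -0.77 at its chosen probe set. Its 5 probe sets were all lower, from -0.55 to a bound of -3.13 or lower. Those past 2-fold were 204455_at, at least 8.76-fold lower, and 216918_s_at, 3.25-fold lower.

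**Figure D3:**
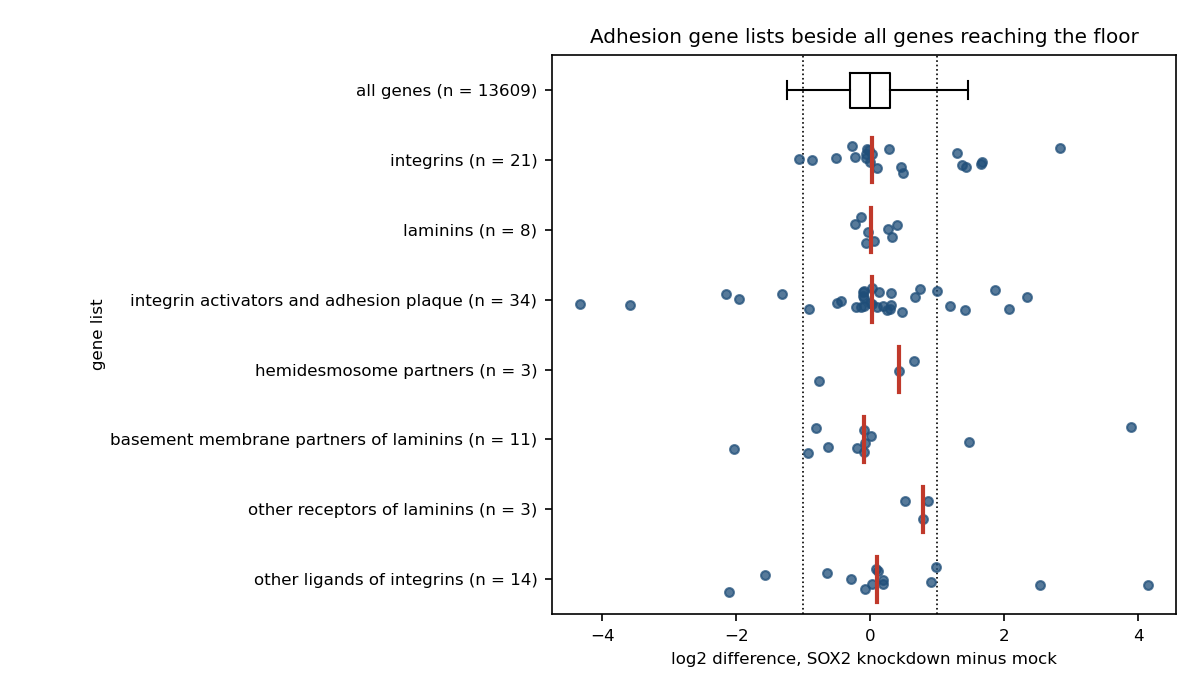
Log2 difference, SOX2 knockdown minus mock, for each gene reaching the floor (points, jittered vertically) in the integrin and laminin families and in lists of their partners, with the list median as a red bar; the box shows all 13609 genes, with whiskers at the 5th and 95th percentiles (-1.25 and 1.46), and dotted lines mark 2-fold. The 8 laminins lie within 0.40 of 0, 6 of 21 integrins lie above 1, and the adhesion plaque genes spread to both sides.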

How the data were processed

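Total RNA was labelled as biotin cRNA with an Affymetrix 3′ kit, 1 array per group, per the labels' protocols. The authors deposited intensity values summarised with RMA per the submitters' processing notes. No label states their scale, which was taken as linear because values reach 23253; its version, settings and return from log2 were not given in the sources used here. Because RMA equalizes array distributions, shifts in total RNA per cell are invisible. Of 54675 probe sets, 62 were controls. A platform annotation named 1 symbol for 41091, several for 1801 and none for 11721, and only the first kind was used; all 33 members kept their symbol by Entrez identifier in RefSeq of GRCh38.p14.

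The log2 of each intensity was taken with no pseudocount. Each gene was read at the probe set of highest mean log2, and it entered where either array reached the floor. Folds whose dimmer value was under the floor are bounds against it. With 1 array per group nothing was tested. Members under the floor are named together, the others are given with both values, and partner lists with up to 3 genes in each direction past 1.5-fold. Members and lists were chosen with earlier results of these data known. Promoters came from a RefSeq table that held 25 of the 35 genes. Counting was checked with planted changes in simulated data. Python 3.11.15, numpy 2.4.6, pandas 2.3.3 and matplotlib 3.10.9 were used.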

Additional observations from a re-analysis of the deposited data

How the results depend on the processing

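Of 15 alternative settings, 12 give a difference per gene, and in those that measured them the 7 integrins past 2-fold kept their sign. ITGB2, ITGB3, ITGB4, LAMB1 and LAMC1, all within 2-fold, took both signs. The integrin median ran from -0.01 to 0.48 and the laminin median from -0.04 to 0.29. The same 6 integrins were at least 2-fold higher under median centring, intensity-dependent centring, quantile normalization, a floor at the 25th or 75th percentile, no floor, values raised to the floor, the median of probe sets and a pseudocount of 32. Across those settings 6.03% (no floor) to 11.2% (floor at the 75th percentile) of all genes were higher. With the probe set of smallest difference 4 of 21 integrins were higher, beside 6.09% of all genes. ITGA2 and ITGB5 were then left out, with ITGB5 at 0.49. With only plain-suffix probe sets ITGA3 had none and 5 of 13 were higher, beside 8.54%, with ITGB5 at 2.28. With the floor reached on both arrays ITGA1 left and 5 of 19 were higher, beside 6.68%. With a limit of 3-fold 3 of 21 integrins were higher (ITGA1, ITGA3 and ITGB5) and 0 lower, beside 4.44% and 3.43% of all genes. With a limit of 1.5-fold 2 were lower, ITGAE joining ITGA5, and 6 basement membrane genes differed. With a pseudocount of 32, 0 integrins were lower, beside 5.91% of all genes. With the floor reached on both arrays 6 adhesion plaque genes differed in place of 10. FERMT2, LPXN, TGFB1I1 and TRIP6 left, each having reached the floor on 1 array only. Under that rule 6.68% of all genes were higher and 5.58% lower. ITGA1 differed by 2.18 with values raised to the floor or with the pseudocount. The SOX2 difference was -4.92 with values raised to the floor, -4.05 as the median of its probe sets, -1.47 with the probe set of smallest difference and -5.32 with the pseudocount. No laminin gene passed 2-fold under any setting. No paired analysis was possible because each group held 1 array. For members near the floor a bound against the floor cannot show a large decrease, and no setting supplies the missing variation between cultures.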
